A study of Mus musculus with 6 samples.

Results

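Protein palmitoylation is written by palmitoyltransferases and erased by acyl-protein thioesterases, and the genes of both sides were followed here in mouse hepatocytes that carry AEG-1 with or without its palmitoylated cysteine. The set was a list of 37 symbols. It held 24 palmitoyltransferases of the Zdhhc family, 2 cofactors of these enzymes (Golga7 and Selenok), 9 thioesterases (Lypla1, Lypla2, Lyplal1, Ppt1, Ppt2, Abhd17a, Abhd17b, Abhd17c and Abhd10) and 2 acyltransferases of another enzyme family that act on secreted proteins (Hhat and Porcn). All 37 were matched by symbol, each to 1 of the 55487 gene rows of the count tables. The rule uses no measured value, but the genes were chosen with earlier results of these data known.

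The cells were hepatocytes from the livers of adult mice of 6 to 8 weeks. The first group was homozygous for AEG-1-C75S, in which cysteine 75 of AEG-1 (gene Mtdh) is replaced by serine, and the second was AEG-1-WT from the same heterozygote matings. RNA was taken 48 h after the cells were isolated, and every library carried the treatment label Control. There were 3 libraries of each genotype, called C75S and WT below. The labels name neither the strain nor the cells in which the allele was introduced, and they leave it unsaid whether each library was made from a mouse of its own. P-values therefore measure the spread between these libraries, which may be technical.

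S-palmitoylation is the attachment of a fatty acid, usually palmitate, to a cysteine through a thioester bond. A Zdhhc enzyme first takes the palmitoyl group from palmitoyl-CoA onto the cysteine of its own DHHC motif and then passes it to the substrate. Because the bond can be cut again by thioesterases, proteins can cycle on and off membranes. Porcn and Hhat, in contrast, acylate Wnt and hedgehog proteins in the endoplasmic reticulum, on residues that lie outside this cycle.

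The catalytic motif was read at the codon level to show what the palmitoyltransferases share. In the longest coding sequence of each gene in GENCODE M21, 23 of the 24 Zdhhc genes encoded DHHC exactly 1 time and Zdhhc13 encoded DQHC. Among 21817 protein-coding genes searched the same way, 48 (0.22%) encoded either tetrapeptide, 24 of them on the list and 24 not. The windows below give the 12 bases of the motif in capitals with 9 coding bases on each side, 5′ to 3′ on the coding strand, for the 2 palmitoyltransferases with the highest levels, for the endoplasmic reticulum enzyme Zdhhc6 and for the exception Zdhhc13. In GRCm38 they lie at chr2:84694716-84696245 (minus strand, with an intron between), chrX:48183130-48191221 (minus strand, with an intron between), chr19:55311748-55311777 (minus strand) and chr7:48817197-48817226 (plus strand).
Zdhhc5: gaggaatttGACCATCACTGCccttgggta
Zdhhc9: gagcgcttcGACCATCACTGCccctgggtg
Zdhhc6: atgaagatgGACCACCACTGCccctggatc
Zdhhc13: gctcgctttGATCAGCACTGCttttggact
In codon terms the motif began at codon 131 of Zdhhc5, 166 of Zdhhc9, 126 of Zdhhc6 and 453 of Zdhhc13, the last of which encodes ankyrin repeats before its transmembrane part.

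The substrate side of the study is a single codon of Mtdh, at chr15:34083246-34083272 (GRCm38, plus strand, exonic and coding). The reference window is shown with codon 75, a cysteine codon, in capitals and 12 coding bases on each side. Of the 579 codons in this coding sequence, 2 encode cysteine.
Mtdh: tgggccgcggctTGCgccggcgcccgc
Mtdh itself was at 212, 192 and 196 CPM (counts per 1000000 of the scaled library) in the C75S libraries. In WT it was at 198, 201 and 191 CPM, so that the genotypes overlapped (log2 fold change 0.02, edgeR adjusted p = 0.909). A count per gene does not read the substituted codon and so checks no label here.

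Library totals ran from 16944723 (C75S replicate 1) to 21044292 counts on genes, and 12741 genes passed the filter on low counts. Of these, 396 had an adjusted p-value under 0.05 between the genotypes (edgeR quasi-likelihood test, Benjamini-Hochberg over all genes tested), 222 higher and 174 lower in C75S. The 6 hepatocyte markers, albumin among them, summed to between 90938 and 100329 TPM (transcripts per 1000000, from counts divided by the summed exon length of the gene) in C75S and between 98164 and 107323 in WT. Among the markers of other liver cells, the macrophage genes Adgre1 and Ptprc stood at 0 to 1 and 0 to 8 counts. Of the macrophage list, 2 of 6 genes passed the filter, and the list summed to 226 to 317 TPM in C75S and 239 to 313 in WT. The endothelial list, with 5 of 6 genes tested, summed to 14.1 to 17.0 TPM in C75S and 12.9 to 15.7 in WT. Of those 5 genes, 4 had higher estimates in C75S and 2 an unadjusted p-value under 0.05, with a median log2 fold change of 0.69. Pecam1 was at 2.87, 2.89 and 3.80 CPM in C75S and 1.14, 2.58 and 2.18 CPM in WT (edgeR adjusted p = 0.208), and Kdr at 0.75, 0.90 and 1.07 against 0.71, 0.49 and 0.49 CPM (edgeR adjusted p = 0.521), both without overlap. The stellate list, with 3 of 6, summed to 1.18 to 1.99 TPM in C75S and 1.30 to 1.64 in WT. Of the marker lists, cholangiocyte markers alone had sums that did not overlap. With 4 of 6 genes tested, they came to between 218 and 329 TPM in C75S and between 184 and 204 in WT. Of them, the keratin gene Krt19 was called higher (9.52 ± 1.22 against 5.47 ± 0.26 CPM, SD, n = 3, edgeR adjusted p = 0.00151), while Cftr was at 0 in every library and Epcam at 0 to 2 counts in C75S and 3 to 12 in WT.

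Hepatocytes expressed most of the palmitoylation machinery. Of the 37 genes, 32 passed the filter, 30 reached a mean of 1 TPM over the 6 libraries and 21 reached 10 TPM. The remaining 5, Zdhhc11, Zdhhc15, Zdhhc19, Zdhhc22 and Zdhhc25, were at 0 counts in all 6 libraries. Zdhhc15 is a relative of Zdhhc2, and Zdhhc19 is best known from the testis. A count of 0 allows up to 3 counts, or 0.142 to 0.172 CPM depending on the library and 0.0251 CPM over the summed libraries, from counting error only. The median level of the 32 tested genes was 20.8 TPM, against 15.4 TPM for all genes tested.

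**Figure D1:**
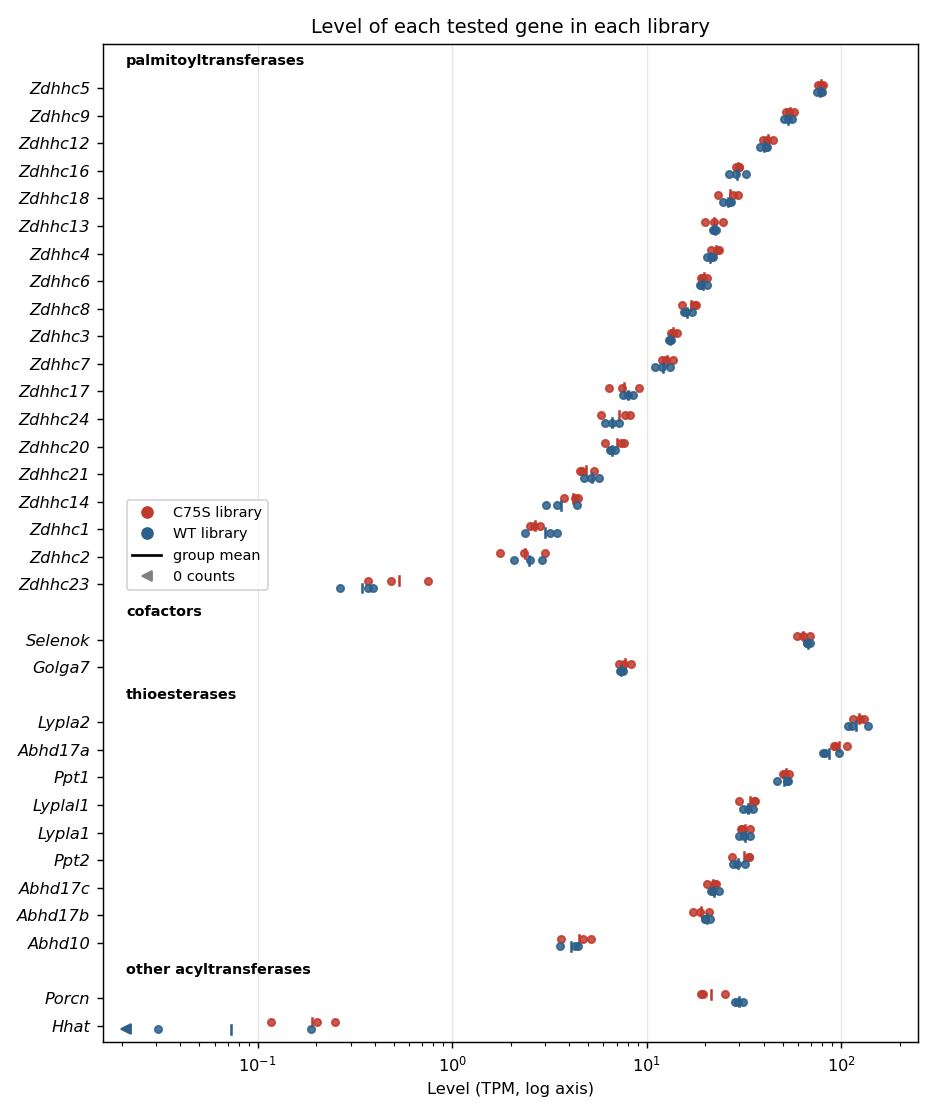
Level of the 32 tested genes in each library, in TPM on a log axis, ordered by mean level within each role; points are libraries (red C75S, blue WT), short bars are group means and the arrowhead marks 0 counts. Levels run from 0.131 TPM (Hhat) to 122 TPM (Lypla2), and the red and blue points of Porcn stand apart, with C75S between 19.1 and 25.4 TPM and WT between 28.6 and 31.5 TPM.

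Among the palmitoyltransferases, 11 of 24 were at 10 TPM or more, 7 were between 1 and 10 TPM and 6 were below 1. The 3 with the highest levels by summed exon length, Zdhhc5, Zdhhc9 and Zdhhc12, held 46.6% of the summed palmitoyltransferase TPM. Zdhhc5, a plasma membrane enzyme whose substrates include the fatty acid receptor CD36, was at 79.1, 80.6 and 75.8 TPM in C75S and at 75.4, 79.9 and 78.7 TPM in WT. All 6 libraries lay within a narrow band and above the range of every other palmitoyltransferase, although with the longest transcript as length Zdhhc9 came first (85.7 against 68.0 TPM). Zdhhc9, a Golgi enzyme that acts on Ras proteins, was at 54.3, 57.2 and 51.9 TPM in C75S and at 55.8, 51.0 and 53.5 TPM in WT. For Zdhhc12, the levels were 44.6, 41.7 and 39.8 TPM in C75S and 41.0, 38.4 and 41.7 TPM in WT.

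A middle tier lay between 12.4 and 29.3 TPM on average. It held Zdhhc16 (29.3), Zdhhc18 (26.5), Zdhhc13 (22.3), Zdhhc4 (22.0), Zdhhc6 (19.5), Zdhhc8 (16.6), Zdhhc3 (13.5) and Zdhhc7 (12.4). Zdhhc3 and Zdhhc7 are Golgi enzymes with many known substrates, Zdhhc8 is the close relative of Zdhhc5, Zdhhc18 is a relative of Zdhhc9, and Zdhhc16 is known to palmitoylate Zdhhc6. Zdhhc6, which acts on calnexin and on the inositol trisphosphate receptor, was at 19.5, 20.4 and 19.1 TPM in C75S and at 19.0, 20.4 and 18.9 TPM in WT, with the genotypes overlapping throughout. Zdhhc16 was at 28.8, 29.8 and 29.8 TPM in C75S and at 32.3, 28.9 and 26.4 TPM in WT, so that the WT libraries spread on both sides of the C75S ones.

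Low but detected palmitoyltransferases were Zdhhc17 (7.84 TPM), an ankyrin-repeat enzyme known to bind huntingtin, Zdhhc24 (6.93), Zdhhc20 (6.86), an enzyme with the EGF receptor among its substrates, Zdhhc21 (5.04), which acts on the kinase Fyn, Zdhhc14 (3.90), another relative of Zdhhc9, Zdhhc1 (2.83) and Zdhhc2 (2.43), which is best known for PSD-95 in neurons. Zdhhc23 came last at 0.439 TPM, with 25, 20 and 14 counts in C75S and 11, 15 and 16 counts in WT. The genotypes overlapped, since the lowest C75S count lay below 2 of the WT counts.

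The cofactors differed from each other by more than the spread between libraries. Selenok, a small selenoprotein of the endoplasmic reticulum that works with Zdhhc6, was at 69.1, 59.2 and 63.8 TPM in C75S and at 69.2, 66.9 and 66.9 TPM in WT. Golga7, the partner of Zdhhc9, was at 8.29, 7.18 and 7.68 TPM in C75S and at 7.27, 7.41 and 7.58 TPM in WT. Per length, Selenok thus lay above Zdhhc6 in every library, and Golga7 below Zdhhc9 in every library.

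All 9 thioesterases were detected, 8 of them at 10 TPM or more. Lypla2, the cytosolic acyl-protein thioesterase 2, had the highest level of the whole set with 131, 124 and 115 TPM in C75S and 138, 114 and 108 TPM in WT. Abhd17a, a serine hydrolase that depalmitoylates N-Ras, followed with 107, 93.1 and 91.7 TPM in C75S and 98.2, 82.9 and 80.4 TPM in WT. Both genes varied more between the 6 libraries (coefficients of variation of 9.26% and 10.6%) than Zdhhc5 did (2.74%), and the genotypes overlapped for each. The lysosomal thioesterase Ppt1, whose loss causes a neuronal ceroid lipofuscinosis, was at 50.6, 53.8 and 51.5 TPM in C75S and at 46.8, 53.4 and 52.7 TPM in WT.

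Lypla1, the acyl-protein thioesterase 1, was at a mean of 31.9 TPM, below its paralog Lypla2 in every library. Lyplal1 (33.6 TPM) and the second lysosomal enzyme Ppt2 (30.6) lay beside it, and their ranges overlapped with its range. Abhd17c (22.1 TPM) and Abhd17b (19.7) were below Abhd17a in every library. The mitochondrial enzyme Abhd10 was the lowest of the 9 at 4.29 TPM.

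Summed over the genes of a role, palmitoyltransferases were at 376 ± 16.5 TPM in C75S and 368 ± 3.90 TPM in WT (SD, n = 3). Thioesterases were at 415 ± 20.8 TPM in C75S and 400 ± 18.5 TPM in WT. The ratio of the 2 sums lay between 1.06 and 1.13 in the 6 libraries, and the genotypes overlapped in each of these measures. Which sum is the larger depends on the length used: with the longest transcript of each gene as its length, palmitoyltransferases came to 441 TPM and thioesterases to 422 TPM over all libraries.

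Ordered by mean TPM, the 32 tested genes gave 31 pairs of neighbours, of which 20 overlapped in the range of their 6 libraries. At the top, the steps without overlap led from Lypla2 down to Abhd17a and Zdhhc5 together, then to Selenok, then to Zdhhc9 and Ppt1 together, and then to Zdhhc12. From Lyplal1 at 33.6 TPM down to Zdhhc6 at 19.5 TPM, each gene overlapped with the next. With the longest transcript as length Zdhhc9 took the second place and Zdhhc6 moved to 37.9 TPM, and over the tested genes the 2 lengths gave levels that differed by factors of 0.81 to 2.28.

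Some of these levels are uncertain because exons overlap or transcripts have near-identical copies. Zdhhc16 shares 959 exon bases with Mms19 on the other strand, and counting without strand kept 62.8% of its count. Golga7, Abhd10 and Zdhhc3 also share exons with genes on the other strand, and they kept 86.1%, 86.9% and 93.5%. Zdhhc2 shares 247 exon bases with Cnot7, and 96 to 153 counts a library fell on the other strand, while counting without strand gave 100% of its count. Zdhhc6 shares 404 exon bases with Acsl5 on the other strand, and 1167 to 1578 counts a library fell on that strand within Zdhhc6, while counting without strand gave 101% of its count. On the same strand, Lypla1 shares 629 of its 7145 exon bases with Gm37988, and Ppt2 shares 957 of 2614 with Gm20460. Ambiguous reads were left out, so the levels of both genes, and of Ppt2 above all, may be too low. Golga7, Lypla1, Ppt2, Selenok and Zdhhc6 each have transcripts of another gene that match at 95% identity or more over at least 200 bases, and reads that fit several places were not counted to genes.

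The promoters of expressed and silent genes of the set were set side by side by their CG content. RefSeq promoter windows (GRCm38.p6) were matched for 29 of the 37 genes, and CG dinucleotides (the letters CG, which read the same on both strands) were counted in the 250 bases before each start, taking the highest window of a gene with several. Windows of Zdhhc2, Zdhhc4, Zdhhc11, Zdhhc13, Zdhhc14, Golga7, Lypla1 and Porcn were not used here. For Zdhhc1, Zdhhc9, Zdhhc16, Zdhhc20, Zdhhc22, Zdhhc23 and Ppt1, the bases just after the window were not found in a GENCODE M21 transcript of the gene. Those windows may lie away from the starts of the counted transcripts. Of the 25 tested genes with a window, 22 held at least 10 CG, and their median was 18. The 4 silent ones, Zdhhc15, Zdhhc19, Zdhhc22 and Zdhhc25, held at most 8. The same contrast was seen over the whole table: 77.2% of tested genes had at least 10 CG, against 22.6% of genes not tested and 37.8% of all 32851 windows, 92.1% of which held at least 1 CG. No test was made of it.

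Windows from the high and the low part of this range are shown with each CG in capitals, 5′ to 3′ on the strand of the gene. They are those of Zdhhc5 (chr2:84715165-84715414, minus strand, 39 CG), the silent Zdhhc19 (chr16:32496031-32496280, plus strand, 1 CG) and Hhat (chr1:192771220-192771469, minus strand, 5 CG), the tested gene with the fewest.
Zdhhc5: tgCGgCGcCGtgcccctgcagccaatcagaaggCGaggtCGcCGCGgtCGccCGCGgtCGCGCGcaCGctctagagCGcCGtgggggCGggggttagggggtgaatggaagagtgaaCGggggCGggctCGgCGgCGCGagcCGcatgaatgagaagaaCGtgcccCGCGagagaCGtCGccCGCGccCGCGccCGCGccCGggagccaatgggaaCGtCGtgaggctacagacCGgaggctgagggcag
Zdhhc19: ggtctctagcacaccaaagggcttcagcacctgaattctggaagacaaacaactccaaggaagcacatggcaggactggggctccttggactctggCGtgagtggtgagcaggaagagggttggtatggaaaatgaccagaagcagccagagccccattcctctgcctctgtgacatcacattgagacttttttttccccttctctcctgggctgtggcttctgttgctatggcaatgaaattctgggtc
Hhat: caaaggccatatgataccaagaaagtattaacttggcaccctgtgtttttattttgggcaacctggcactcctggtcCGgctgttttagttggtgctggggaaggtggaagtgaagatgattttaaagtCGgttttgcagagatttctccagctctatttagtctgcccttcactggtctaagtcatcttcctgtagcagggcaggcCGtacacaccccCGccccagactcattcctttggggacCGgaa
Hhat was also the tested gene with the lowest level, at 0.131 TPM. Low CG content did not go with a low level throughout, since Ppt1 and Lyplal1 had 7 CG each, and Zdhhc23 had 41 at 0.439 TPM.

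**Figure D2:**
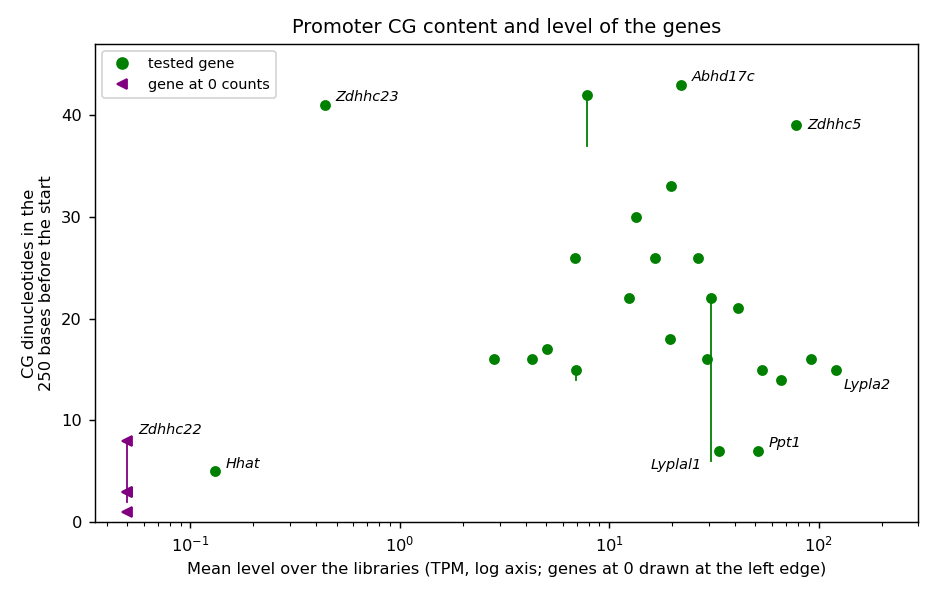
CG dinucleotides in the 250 bases before the start (vertical axis) against the mean level over the 6 libraries in TPM (log axis) for the 29 genes with a window; green points are tested genes, purple arrowheads genes at 0 counts drawn at the left edge, and a vertical line spans the windows of a gene with several starts. The silent genes lie at or below 8 CG, while 22 of 25 tested genes lie at 10 or more.

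Between the genotypes, 1 of the 32 tested genes was called, which is 3.125% of them and close to the 3.11% of all tested genes. It was Porcn, called lower in C75S, a direction in which 1.37% of all tested genes were called. Porcn was also the single member with an unadjusted p-value under 0.05, where the share over all genes was 13.4%. Estimates were higher in C75S for 22 genes and lower for 10, and their median log2 fold change was 0.028, against -0.0030 for all genes tested.

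**Figure D3:**
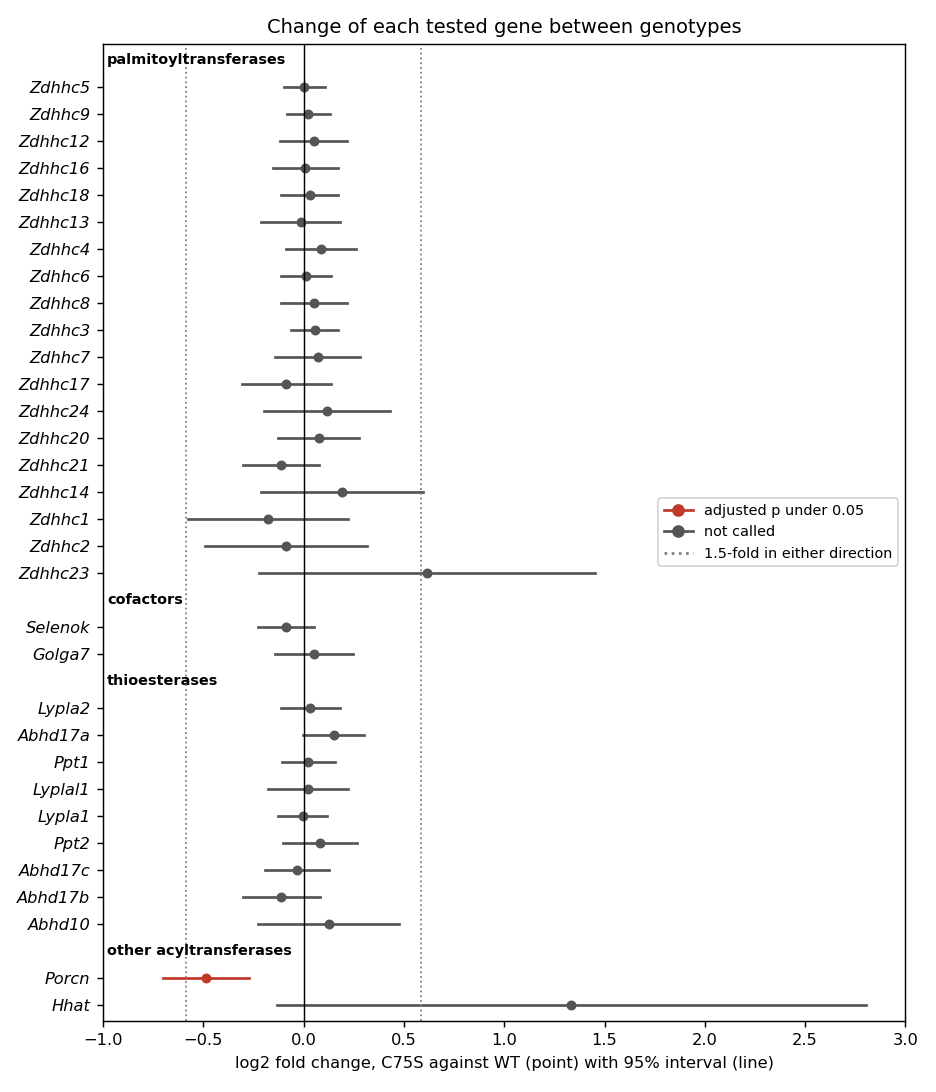
Log2 fold change of each tested gene, C75S against WT (points), with its 95% interval from the edgeR fit (lines), grouped by role; red marks an adjusted p-value under 0.05 and dotted lines mark 1.5-fold in either direction. Porcn lies at -0.49 with an interval below 0, and 28 of the other 31 intervals are inside the dotted lines.

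Porcn, the membrane-bound O-acyltransferase that Wnt proteins need before they can be secreted, lies on the X chromosome (chrX:8193848-8206525, minus strand, GRCm38). Its level was 19.2, 19.3 and 26.5 CPM in C75S, from 335, 406 and 496 counts. In WT it was 29.9, 32.0 and 29.2 CPM, from 629, 656 and 602 counts. Every C75S library lay below every WT library, and C75S replicate 3 stood nearer to WT than to the other C75S libraries. The mean was 21.7 ± 4.21 CPM in C75S and 30.3 ± 1.44 CPM in WT (SD, n = 3), a log2 fold change of -0.49 (SE 0.10, 95% interval -0.70 to -0.27, edgeR adjusted p = 0.0103). Sex-linked genes were read because Porcn is X-linked. Genes on the Y chromosome were expressed in all 6 libraries (Ddx3y 1972 to 2553 counts) and Xist was at 0 to 8 counts in them. Ddx3y did not overlap between the genotypes, at 75.6, 69.4 and 63.4 TPM in C75S and 57.8, 54.6 and 58.6 TPM in WT. The Y-linked Eif2s3y, Kdm5d and Uty overlapped in TPM, and 18.0% of all tested genes did not overlap in CPM.

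The Porcn call held in 12 of 13 alternative fits, whose adjusted p-values ran from 3.9e-06 to 0.0739, with log2 fold changes from -0.66 when C75S replicate 3 was left out to -0.40 when C75S replicate 2 was. It was lost without WT replicate 2, where the log2 fold change was -0.45 and the edgeR adjusted p was the highest of these. Some markers given above also separated the genotypes. The summed cholangiocyte list, Krt19 and the endothelial genes Pecam1 and Kdr were higher in all C75S libraries. Epcam was lower in all of them, but at 0 to 2 counts against 3 to 12 in WT it did not pass the filter and was not tested. Estimates were higher in C75S for 3 of 4 tested cholangiocyte genes and 4 of 5 tested endothelial genes, and the endothelial sums overlapped. Over all tested genes, 18.0% did not overlap in CPM. The part of these markers in the Porcn difference was not tested. In RNA from a whole cell preparation, fewer cells of a type and less RNA per cell cannot be told apart.

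**Figure D4:**
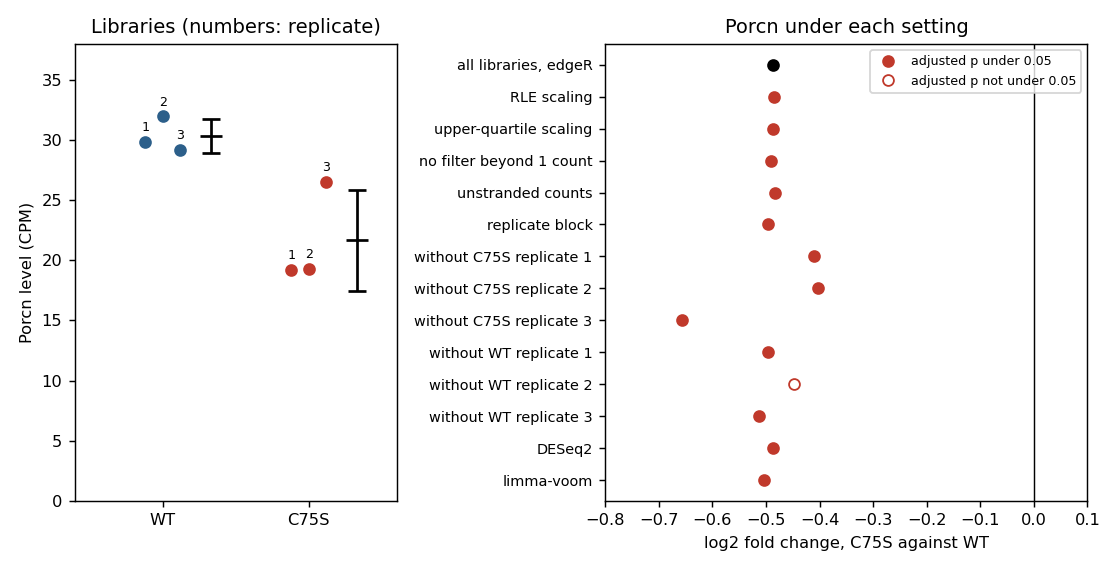
Left, Porcn in CPM in each library, with the replicate number beside each point and the group mean and SD as bars to the right; right, its log2 fold change (C75S against WT) with all libraries (black) and 13 alternatives, with open points where the adjusted p-value is not under 0.05. The WT libraries lie between 29.2 and 32.0 CPM and the C75S libraries between 19.2 and 26.5, and the single open point is the fit without WT replicate 2.

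Hhat, the enzyme that palmitoylates hedgehog proteins, was near the detection limit, with 13, 13 and 7 counts in C75S and 2, 0 and 12 counts in WT. WT replicate 3 lay within the C75S range and the other WT libraries lay below it, and the test did not call it (log2 fold change 1.33, 95% interval -0.13 to 2.80, edgeR adjusted p = 0.438). Its size depended on single libraries. Without WT replicate 3, the library with 12 counts, the log2 fold change was 3.42 and the edgeR adjusted p 0.0676, the lowest of its alternatives. Without WT replicate 2, the library with 0 counts, they were 0.77 and 0.719, the highest adjusted p, and limma-voom gave 2.27.

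Of the 19 tested palmitoyltransferases, 0 were called, where 3.11% of all tested genes were called. Their log2 fold changes lay between -0.18 (Zdhhc1) and 0.61 (Zdhhc23), with 14 higher and 5 lower estimates and edgeR adjusted p-values of 0.556 to 0.981. DESeq2, limma-voom and the other alternatives called 0 of them too. For the well-measured ones the intervals were narrow. Zdhhc5 had a log2 fold change of 0.0041 with a 95% interval of -0.10 to 0.11, and Zdhhc9 one of 0.02 with an interval of -0.08 to 0.13. For Zdhhc6 the log2 fold change was 0.01, with an interval of -0.11 to 0.14 (edgeR adjusted p = 0.966).

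Zdhhc4, an enzyme that like Zdhhc5 acts on CD36, was one of 3 genes whose genotypes did not overlap in CPM. It was at 22.0, 22.2 and 21.5 CPM in C75S and at 20.7, 21.2 and 19.9 CPM in WT. All C75S libraries were above all WT libraries, but by less than the test requires (log2 fold change 0.09, 95% interval -0.09 to 0.26, edgeR adjusted p = 0.725). In TPM, which scales the libraries differently, the genotypes overlapped, with C75S replicate 3 at 21.5 TPM and WT replicate 2 at 21.8 TPM. Selenok was the other gene that did not overlap without being called, with 42.8, 37.6 and 42.0 CPM in C75S and 44.0, 42.8 and 43.0 CPM in WT. Its highest C75S library reached 42.78 CPM and its lowest WT library was at 42.84 CPM, and in TPM its genotypes overlapped too (log2 fold change -0.09, edgeR adjusted p = 0.643). With Porcn these made 3 of 32 genes, or 9.375%, where 18.0% of all tested genes did not overlap.

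The other cofactor, Golga7, had a log2 fold change of 0.05 (95% interval -0.15 to 0.24). Among the 9 thioesterases 0 were called, against the same 3.11% of all tested genes. Estimates were higher for 6 and lower for 3, and log2 fold changes lay between -0.11 (Abhd17b) and 0.15 (Abhd17a). Abhd17a came closest to the threshold, at 54.1, 48.4 and 49.3 CPM in C75S and 51.0, 43.4 and 42.3 CPM in WT. WT replicate 1 lay among the C75S libraries (edgeR adjusted p = 0.378), and without it the edgeR adjusted p was 0.0723, the lowest of alternatives that reached 0.735. The intervals of Lypla1 (-0.13 to 0.12), Lypla2 (-0.11 to 0.18) and Ppt1 (-0.11 to 0.15) all included 0.

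The precision of these comparisons can be stated gene by gene. Of the 31 genes that were not called, 28 had a 95% interval that excluded a change of 1.5-fold in either direction. The intervals of Hhat, Zdhhc23 and Zdhhc14 reached that size, so a change of 1.5-fold was not excluded for them at this depth. The 29 uncalled genes at 1 TPM or more had log2 fold changes between -0.18 and 0.19. The biological coefficient of variation that edgeR fitted had a median of 6.44% over the tested genes of the set and of 6.52% over all genes tested.

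Genes that supply palmitoyl-CoA or consume it were taken as a list of 25, of which 24 were tested. Of these, 1 was called higher and 1 lower, where 3.11% of all tested genes were called, and the median log2 fold change was 0.02 against -0.0030 for all genes. An unadjusted edgeR p-value under 0.05 was reached by 5 of the 24, where the share over all genes was 13.4%. The list summed to 3322 to 3455 TPM in C75S and 3140 to 3234 TPM in WT, without overlap. Such a sum is weighted to the most abundant genes, and single estimates were higher in C75S for 13 of the 24. Scd1, the desaturase that makes the monounsaturated acyl-CoA used by Porcn, was higher in C75S at 1392, 1362 and 1436 CPM, against 1132, 1231 and 1185 CPM in WT, without overlap (log2 fold change 0.24, edgeR adjusted p = 0.0120). Acsl1, a long-chain acyl-CoA synthetase, was lower at 128, 131 and 146 CPM, against 144, 163 and 165 CPM, with WT replicate 1 inside the C75S range (log2 fold change -0.22, edgeR adjusted p = 0.0402). The Scd1 call was lost without WT replicate 1 (adjusted p = 0.0581, from 1.4e-05 in the other alternatives). The Acsl1 call was lost in limma-voom (0.0569) and in 4 fits that left out a library, namely replicate 1 (0.180) or replicate 2 (0.152) of C75S and replicate 2 (0.207) or replicate 3 (0.189) of WT, and its lowest adjusted p was 0.00269.

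A list of 25 genes for other lipid anchors held genes of myristoylation, prenylation and GPI anchors. It also held Mboat4, Hhatl, Notum, Golga7b, Abhd13, Abhd16a, Abhd6 and Abhd12, which belong to none of these pathways. Of the 25, 21 were tested and 0 were called by edgeR, where 3.11% of all tested genes were called. An unadjusted edgeR p-value under 0.05 was reached by 2, and the median log2 fold change was 0.01. The list also had 0 calls by DESeq2 and by limma-voom. The 2 smallest p-values belonged to Piga, which starts GPI anchor synthesis (log2 fold change 0.28, edgeR adjusted p = 0.150), and Chml, a Rab escort protein of prenylation (-0.24, edgeR adjusted p = 0.308).

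Of 30 genes that encode palmitoylated proteins, Mtdh included, 28 were tested. Estimates were higher in C75S for 21 of them, and the median log2 fold change of the list was 0.04 against -0.0030 for all genes.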

How the data were processed

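RNA from 6 hepatocyte libraries, 3 AEG-1-C75S and 3 WT, was sequenced on an Illumina HiSeq3000 after a QIAGEN extraction and a TruSeq library kit, per the labels' protocols. The authors deposited raw read counts per Ensembl gene in the layout of STAR. Trim Galore 0.6.6, STAR 2.7.9a, edgeR 3.36.0 and the builds mm10 and GRCm38 are named in the submitters' processing notes; the annotation release is not given in the sources used here. Reverse-strand counts summed to 33.3 times the forward ones and were used. Unmapped (4.37% to 5.81%), multimapping (18.0% to 18.5%), featureless (4.99% to 5.55%) and ambiguous reads (0.891% to 0.926%) were left out, so genes with near-identical copies are counted too low.

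From the deposited counts, genes were filtered with filterByExpr (minimum count 10, minimum total 15), scaled by TMM and compared by edgeR 4.0.16 under R 4.3.3 (robust quasi-likelihood, two-sided, genotype as the single term) with Benjamini-Hochberg adjustment over 12741 genes and a threshold of 0.05. Intervals are at 95%. SE is the size of the change over the square root of F. CPM uses TMM-scaled libraries. TPM uses the union of the exons in GENCODE M21 (GRCm38), which matched 55227 of 55487 gene rows, or the longest transcript. The fit was tested on simulated data, where the share of false calls was above the threshold of 0.05 and some changed genes were missed. Same-numbered libraries did not deviate together (correlations -0.040 to 0.025). Replicates differed by more than sampling noise (chi-square per degree of freedom at least 4.05). Near copies were sought with BLAST 2.17.0 and codons read with Biopython 1.88.

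Alternatives were RLE and upper-quartile scaling, DESeq2 1.42.0, limma-voom (limma 3.58.1), no filter beyond 1 count, unstranded counts, a replicate block and leaving out each library. Named are all 37 genes, per list the called genes (at most 5, or the 2 with the smallest p), Mtdh and defining markers. A result that this rule chose on the list of palmitoylated proteins is not reported here. Cftr, the Y-linked genes, Xist, the Wnt and the hedgehog genes were chosen after their values were seen. The 37 genes and the lists were chosen with earlier results of these data known. A planned description of the proteins was replaced by codons of the annotated transcripts.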

Additional observations from a re-analysis of the deposited data

How the results depend on the processing

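Over 13 alternative fits the count of called genes, 396 as reported, was 573 without a filter, 480 with the replicate block, 349 in DESeq2, and 201 to 355 when a library was left out (201 without WT replicate 2, 246 without WT replicate 3, 253 without C75S replicate 1). When a library was left out, 0 to 1 of the 37 genes were called, with 0 in the fit without WT replicate 2. Every other fit called 1. Of the 37 other than Porcn, 0 were called in any of the 13. DESeq2 gave Hhat no adjusted p-value and so could not call it. The replicate block changed no call among the 32 tested genes. Deviations of same-numbered libraries from their group means were close to uncorrelated (correlations -0.040 to 0.025). Such correlations cannot settle whether libraries of the same number were prepared together.

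In the 7 fits that keep all libraries, 0 of the 32 log2 fold changes turned sign. When a library was left out, 13 turned, all with reported values of at most 0.088 in size: Zdhhc2 (-0.26 to 0.069), Zdhhc17 (-0.20 to 0.036), Zdhhc13 (-0.071 to 0.066), Zdhhc16 (-0.055 to 0.085), Zdhhc18 (-0.014 to 0.10), Zdhhc9 (-0.011 to 0.052), Zdhhc6 (-0.015 to 0.049), Zdhhc5 (-0.022 to 0.022), Lypla1 (-0.049 to 0.050), Lypla2 (-0.032 to 0.14), Lyplal1 (-0.022 to 0.081), Ppt1 (-0.036 to 0.063) and Abhd17c (-0.072 to 0.031). The longest transcript as length moved the summed TPM of palmitoyltransferases from 372 to 441 and of cofactors from 73.4 to 68.8, and unstranded counts moved the former to 359. The filter kept 32 of the 37 with unstranded counts too, and 30 had a mean of at least 1 TPM.

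The data are limited to 3 libraries a genotype and to RNA, not enzyme or palmitoylated protein. Gene lengths ignore which transcripts are used, and Hhat and Zdhhc23 had few counts.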

Other observations

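Porcn acylates Wnt proteins, so the Wnt genes themselves were looked at in the same libraries, as levels only and without a test, in a choice made after the data were seen. Of 19 Wnt genes, 9 were at 0 counts in every library, 5 never exceeded 3 counts and 1, Wnt16, exceeded 3 counts in a single library. The other 4 were above 3 counts in all 6 libraries: Wnt9a at 64 to 98 counts, Wnt5b at 28 to 42, Wnt5a at 14 to 30 and Wnt4 at 4 to 23. Wnt9a had the highest level, at 3.37, 3.82 and 3.14 TPM in C75S and 4.03, 4.24 and 3.60 TPM in WT, with the genotypes overlapping. Wnt4 did not overlap, at 0.167, 0.438 and 0.220 TPM in C75S and 0.775, 0.481 and 0.579 TPM in WT. For Wnt5a and Wnt5b the genotypes overlapped. Over all tested genes, 18.0% did not overlap in CPM. Wls, the carrier that takes acylated Wnt proteins to the cell surface, was at 5 to 19 counts.

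Hedgehog proteins are the substrates of Hhat, and their genes were low too. Ihh was at 1 to 11 counts, Dhh at 0 to 4 and Shh at 0 to 1. Per length, Porcn at 25.6 TPM thus lay above every Wnt gene in these cells, while Hhat at 0.131 TPM and Ihh at 0.232 TPM had overlapping ranges over the 6 libraries.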
